A study of Mus musculus with 8 samples.

Results

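Mcam, Ngfr, Bst1, Steap4, Aqp5 and Padi3 are 6 of the 20189 genes measured by sequencing of mRNA in 4T1 cells with and without acetate. They encode proteins of the cell surface or of differentiated epithelium. They were chosen by their difference between acetate and vehicle in these same libraries, so that difference is given below as a description, with no test. 4T1 is an established mouse mammary carcinoma line of wild-type genotype that spreads to the lung in mice, and all libraries came from this 1 line. Cells grew in DMEM medium with serum, and for 48 h they had either 5 mM acetate or water as vehicle. Each group had 4 libraries, and the number of a library pairs it with 1 of the other group, since both bear the same code in the labels. Acetate is a source of acetyl-CoA, and the comparison asked what a larger supply of it does to gene expression.

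The 6 proteins have unlike jobs. Mcam is an adhesion molecule of the immunoglobulin family, known from blood vessel walls and melanoma. Ngfr is the low-affinity receptor for neurotrophins, found on nerve cells and on basal cells of several epithelia. Bst1 is an enzyme on the outer face of the membrane that cleaves NAD, first described on bone marrow stroma. Steap4 is a metalloreductase that reduces iron and copper ions before their uptake and is induced in inflammation and nutrient excess. Aqp5 is the water channel of secretory glands such as the salivary gland. Padi3 turns arginine in proteins into citrulline and is best known from the hair follicle, where it acts on proteins of the hair sheath.

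Values are normalised read counts, called units here, scaled so that each library sums to 20000000. Depth ran from 19.9 to 29.3 M reads (M, mega) in the 8 libraries, and 1 unit stood for about 1 read. Changes are differences in log2(units + 1), acetate minus vehicle, a scale that understates the change of low genes. Library totals overlapped between the groups. Markers of the epithelium from which 4T1 came were all present, with Cdh1 (E-cadherin) at a mean of 6022 units and Krt8 at 17471 units in vehicle. Krt5, the defining basal keratin, and Kit and Elf5, which define luminal progenitors, were not among the genes analysed.

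The start regions of these genes are shown because all were chosen as higher in acetate, so that their sequence can be compared. RefSeq start windows (build GRCm38.p6, 250 bases before the start to 50 after it, each on the gene's own strand) were matched for 5 of the 6 genes, Bst1 being the other. They are Mcam at chr9:44134408-44134707 (plus strand), Ngfr at chr11:95587649-95587948 (minus strand), Steap4 at chr5:7960222-7960521 (plus strand), Aqp5 at chr15:99590778-99591077 (plus strand) and Padi3 at chr4:140810599-140810898 (minus strand). Capitals mark matches, on either strand, to 1 of the 7 motifs spelled out after the sequences.
Mcam: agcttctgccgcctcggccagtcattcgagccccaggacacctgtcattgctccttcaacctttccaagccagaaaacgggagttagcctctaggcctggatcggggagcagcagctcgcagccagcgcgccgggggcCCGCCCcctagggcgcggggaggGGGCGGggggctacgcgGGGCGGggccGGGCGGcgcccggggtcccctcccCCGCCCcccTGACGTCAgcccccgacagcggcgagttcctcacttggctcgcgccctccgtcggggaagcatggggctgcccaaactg
Ngfr: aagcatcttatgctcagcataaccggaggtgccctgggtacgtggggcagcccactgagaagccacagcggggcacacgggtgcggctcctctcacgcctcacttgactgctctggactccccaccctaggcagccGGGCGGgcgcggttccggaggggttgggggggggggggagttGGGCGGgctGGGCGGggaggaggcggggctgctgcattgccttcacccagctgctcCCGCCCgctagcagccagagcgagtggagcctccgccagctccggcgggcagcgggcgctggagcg
Steap4: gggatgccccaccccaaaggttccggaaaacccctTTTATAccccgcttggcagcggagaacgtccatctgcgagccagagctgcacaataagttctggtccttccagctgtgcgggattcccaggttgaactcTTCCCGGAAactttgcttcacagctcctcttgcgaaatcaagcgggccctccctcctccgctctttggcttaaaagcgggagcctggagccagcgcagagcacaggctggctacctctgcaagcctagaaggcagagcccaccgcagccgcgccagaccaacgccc
Aqp5: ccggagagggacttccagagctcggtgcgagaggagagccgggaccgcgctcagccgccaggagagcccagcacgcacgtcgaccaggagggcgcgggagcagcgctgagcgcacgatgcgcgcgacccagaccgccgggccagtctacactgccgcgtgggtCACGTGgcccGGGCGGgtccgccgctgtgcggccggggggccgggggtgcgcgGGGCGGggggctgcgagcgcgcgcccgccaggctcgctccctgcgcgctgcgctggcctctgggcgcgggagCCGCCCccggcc
Padi3: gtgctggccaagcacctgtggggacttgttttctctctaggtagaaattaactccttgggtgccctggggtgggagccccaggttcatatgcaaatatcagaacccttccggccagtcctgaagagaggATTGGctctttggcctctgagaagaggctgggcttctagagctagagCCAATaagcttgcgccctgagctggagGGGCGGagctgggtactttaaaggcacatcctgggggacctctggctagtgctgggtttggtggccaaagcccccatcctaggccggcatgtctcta
The windows were unlike one another. Starts are those of RefSeq, which lie inside the GENCODE gene spans given further on: 246 bases after the GENCODE start for Aqp5, 189 for Mcam, 37 for Ngfr, 15 for Steap4 and 0 for Padi3. The windows of Aqp5 and Mcam therefore lie mostly within those spans, and distances below are from the RefSeq start. GC content was 72.7% for Mcam, 71.7% for Ngfr, 79.7% for Aqp5, 60.3% for Steap4 and 56.7% for Padi3, against a median of 52.7% over 32851 windows. Aqp5 had 46 CpG pairs, Mcam 29, Ngfr 23, Steap4 16 and Padi3 4, against a median of 7. The motifs searched on both strands were the GC box GGGCGG, the cAMP response element TGACGTCA, the E-box CACGTG, the TATA box TATAAA, the STAT site TTCNNNGAA, the CCAAT box CCAAT and the AP-1 site TGANTCA. No 2 of the matches printed here overlapped. The GC box was in 4 of the 5 windows (Mcam, Ngfr, Aqp5 and Padi3), and 35.7% of all windows held it. Each of the next matches was in 1 window of the 5. The cAMP response element lay 29 bases before the RefSeq start of Mcam, and 1.79% of all windows held it. The STAT site and a TATA box on the reverse strand were in the Steap4 window, 116 and 215 bases before its RefSeq start, and were held by 8.3% and 13.6% of all windows. The E-box lay 87 bases before the RefSeq start of Aqp5 (7.15% of all windows), and CCAAT came 2 times in the Padi3 window (37.4%). None of the 5 windows held the AP-1 site, which 7.81% of all windows held. A match to these letters is a description of the sequence and does not show that a factor binds there.

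Mcam, the adhesion molecule (ENSMUSG00000032135, chr9:44134469-44142727, plus strand, GENCODE M21 on GRCm38), stood apart from the other 5 in how little it varied between replicates. Vehicle libraries 1 to 4 had 340, 453, 426 and 394 units. Acetate libraries 1 to 4 had 624, 660, 604 and 577 units. Every acetate library lay above every vehicle library, and Mcam was the only 1 of the 6 genes for which this held. Over all genes, 1.65% had groups that did not overlap and 0.996% had them with acetate higher. The means were 403 ± 48.8 units in vehicle and 616 ± 34.9 in acetate (SD, n = 4), and the change over the 4 pairs was 0.62 ± 0.17 on the log2 scale (mean ± SD). It was the smallest change of the 6, and 1127 genes (5.58%) had 1 at least as large. Pair 1 changed by 0.88 and the other 3 pairs by 0.50 to 0.55. Mcam shares 17 exon bases with Gm10687 on the opposite strand, which had a mean of 3.54 units, and whether reads were counted by strand is not stated.

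Ngfr, the neurotrophin receptor (ENSMUSG00000000120, chr11:95568818-95587735, minus strand), was the lowest of the 6. Vehicle libraries 1 to 4 had 9.92, 51.3, 40.2 and 84.6 units. Acetate libraries 1 to 4 had 12.6, 122, 89.7 and 209 units. The groups overlapped, because both libraries of replicate 1 lay far under the 6 others. Those 2 libraries rest on 13 reads in vehicle (95% Poisson interval 5.28 to 16.97 units) and 16 reads in acetate (7.18 to 20.4 units), so no difference was detectable within pair 1 at this depth. These intervals, and those that follow, cover counting error only. In the other pairs the acetate library had 2.38, 2.23 and 2.47 times the vehicle value. The means were 46.5 ± 30.8 and 108 ± 81.4 units (SD, n = 4), with a change of 0.99 ± 0.46 over the pairs.

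Bst1, the NAD-cleaving surface enzyme (ENSMUSG00000029082, chr5:43818885-43843986, plus strand), was higher in acetate by a like amount in each pair. Vehicle libraries 1 to 4 had 84.0, 430, 384 and 761 units. Acetate libraries 1 to 4 had 192, 793, 819 and 1295 units. The groups overlapped, since the vehicle library of replicate 4 lay far above the acetate library of replicate 1. The changes in pairs 1 to 4 were 1.19, 0.88, 1.09 and 0.77, with a mean of 0.98 ± 0.19. The means were 415 ± 277 and 775 ± 452 units. Exons of Bst1 share 98 bases with Fbxl5 on the opposite strand. Fbxl5 was far more abundant, at a mean of 2080 units, and its change was 0.08 (95% interval 0.02 to 0.14, adjusted p = 0.119, limma with the block).

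Steap4, the metalloreductase (ENSMUSG00000012428, chr5:7960457-7982213, plus strand), varied most between replicates. Vehicle libraries 1 to 4 had 6.87, 229, 149 and 411 units. Acetate libraries 1 to 4 had 24.3, 356, 260 and 694 units. The highest vehicle library was 59.8 times the lowest, and the groups overlapped widely. In replicate 1 the values rest on 9 reads in vehicle (3.14 to 13.04 units) and 31 in acetate (16.5 to 34.5 units), and these 2 intervals do not overlap. Pair 1 changed by 1.69 and pairs 2 to 4 by 0.64, 0.80 and 0.76, and the mean of 0.97 ± 0.48 was 0.73 without pair 1, the pair with the fewest reads. With the vehicle library of replicate 1 left out and the groups compared without pairs, the difference turned to -0.26, with the acetate library of that replicate kept.

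Aqp5, the water channel (ENSMUSG00000044217, chr15:99590782-99594829, plus strand), had the least even change. Vehicle libraries 1 to 4 had 58.0, 98.5, 109 and 283 units. Acetate libraries 1 to 4 had 129, 269, 176 and 332 units. The groups overlapped, and the vehicle library of replicate 4 was higher than 3 of the 4 acetate libraries. The changes in pairs 1 to 4 were 1.14, 1.44, 0.69 and 0.23, with a mean of 0.88 ± 0.53. In pair 4 the 95% Poisson intervals of the 2 libraries (256 to 311 units in vehicle and 302 to 364 in acetate) overlapped. The means were 137 ± 99.5 and 227 ± 91.2 units.

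Padi3, the citrulline-forming enzyme (ENSMUSG00000025328, chr4:140785365-140810648, minus strand), was the most abundant of the 6. It had the largest mean change in log2(units + 1) over the 4 pairs. By the ratio of group means Ngfr came above Padi3 (2.33 against 2.03), as it did in the change without pair 1 (1.22 against 1.05). Vehicle libraries 1 to 4 had 294, 642, 761 and 1284 units. Acetate libraries 1 to 4 had 650, 1501, 1671 and 2229 units. Within each pair the acetate library was higher, while the groups overlapped across pairs. The changes in pairs 1 to 4 were 1.14, 1.22, 1.13 and 0.79, with a mean of 1.07 ± 0.19, and 136 genes (0.669%) had a change at least as large. The means were 745 ± 410 and 1513 ± 654 units.

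**Figure D1:**
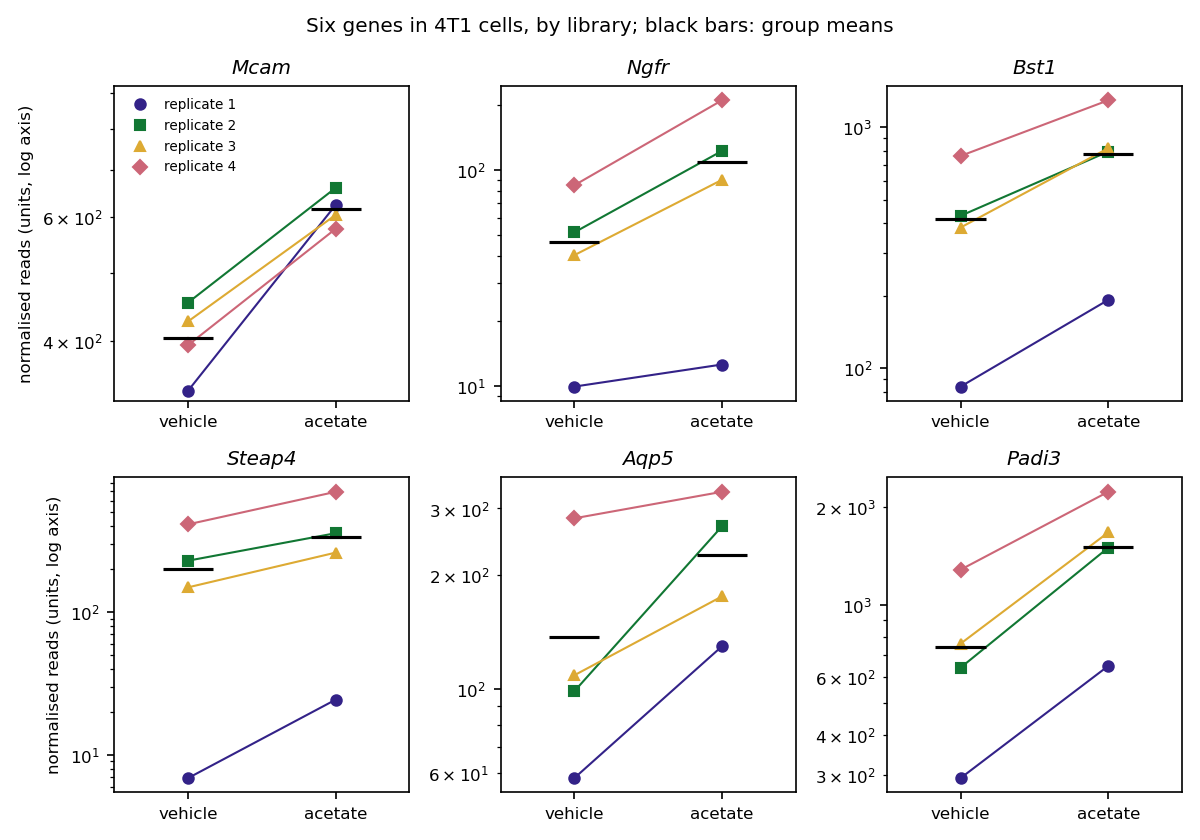
Normalised reads (units, log axis) of the 6 genes in each library, with vehicle on the left and acetate on the right of each panel. Lines join libraries of the same replicate number and black bars are group means (n = 4). In Mcam every acetate point, from 577 to 660 units, lies above every vehicle point, from 340 to 453, and in the other 5 panels both replicate 1 points lie lowest in their group and both replicate 4 points highest.

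The 6 genes were higher in acetate in each of the 4 pairs, as the way they were chosen favours, and 16.7% of all genes were. The change averaged over the 6 genes was 1.06, 0.99, 0.89 and 0.73 in pairs 1 to 4, while the median over all genes lay between 0 and 0.03. Which gene changed most differed between pairs: Steap4 in pair 1, Aqp5 in pair 2 and Ngfr in pairs 3 and 4. Bst1 and Padi3 had the most alike changes over the pairs, with a root mean square difference of 0.17, and Ngfr and Steap4 the least alike, at 0.81.

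**Figure D2:**
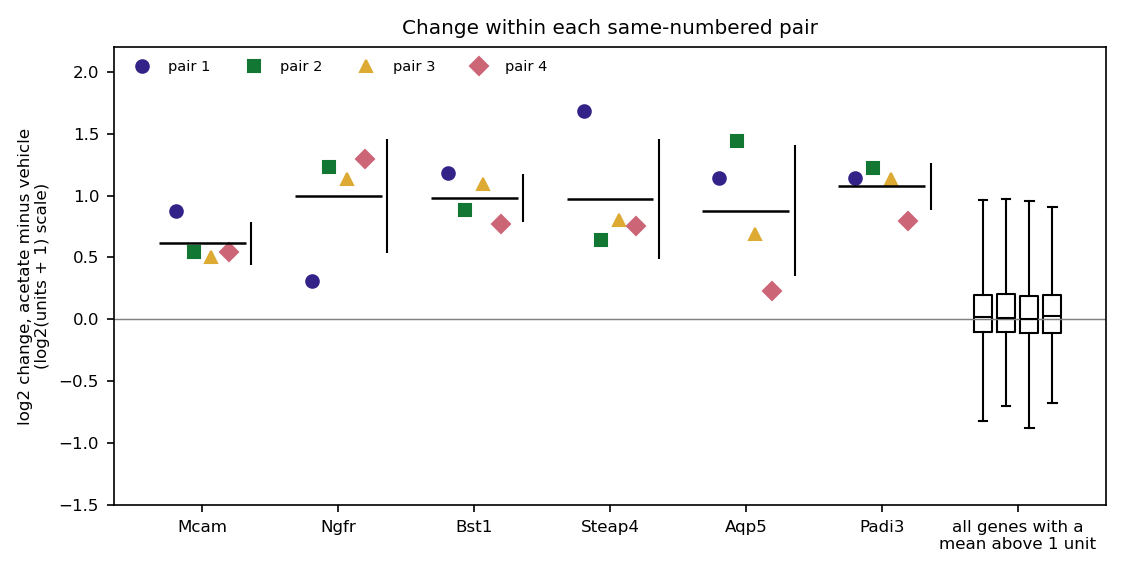
Change within each same-numbered pair, acetate minus vehicle in log2(units + 1), for the 6 genes (points) with the mean (bar) and SD (vertical line, n = 4). Boxes at the right give pairs 1 to 4 over 18188 genes (quartiles and median, whiskers from the 5th to the 95th percentile). All points are above 0, from 0.23 for Aqp5 in pair 4 to 1.69 for Steap4 in pair 1.

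Between genes, levels are compared per kilobase of exon. In vehicle Padi3 had 216 ± 119 units per kilobase (mean ± SD, n = 4), Bst1 125 ± 83.6, Mcam 120 ± 14.6, Steap4 63.0 ± 53.4, Aqp5 52.7 ± 38.3 and Ngfr 13.5 ± 8.95. In acetate the order of the mean levels was the same, from Padi3 at 439 ± 190 units per kilobase to Ngfr at 31.4 ± 23.6, with Bst1 at 234 ± 136, Mcam at 184 ± 10.4, Steap4 at 106 ± 88.1 and Aqp5 at 87.2 ± 35.1. Each of these neighbours in the order had ranges over libraries that overlapped in both groups. Per kilobase of the longest transcript, Aqp5 stood above Steap4, at 76.2 and 63.0 units in vehicle and 126 and 106 in acetate, so the order of these 2 depends on the length used.

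Differences between replicate numbers, which were not what these genes were chosen for, took a larger share of the variance than acetate in 5 of the 6. Of the variance of log2(units + 1) over the 8 libraries, the replicate number held 93.5% for Steap4, 85.4% for Ngfr, 83.0% for Bst1, 63.2% for Aqp5 and 63.0% for Padi3. Treatment held 5.50%, 12.6%, 16.5%, 28.9% and 36.2% of it in the same order. Mcam was the other way round, with 8.09% for the replicate number and 86.7% for treatment. The replicate number has more levels than treatment and so can take up more variance, and these shares are not corrected for that.

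The distance from the highest to the lowest replicate mean was 5.24 on the log2 scale for Steap4, and 0.165% of 18188 genes had a distance at least as wide. It was 3.46 for Ngfr (1.57% of genes) and 2.96 for Bst1 (2.95%). For Padi3 it was 1.95 (10.7%), for Aqp5 1.81 (12.9%) and for Mcam 0.25 (87.2%). In 5 of the 6 genes, all but Mcam, replicate 1 was lowest and replicate 4 highest in both groups. This order was shared by 3741 of 18188 genes (20.6%), so it is not particular to these 5. Cells of a kind that are fewer in a culture and less RNA per cell cannot be told apart in such bulk libraries.

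Over the 8 libraries, each gene's profile was centred on its own mean and compared by the root mean square difference with all genes that had a symbol and a mean above the median of 117 units. Among the 6 genes the closest profiles were those of Aqp5 and Padi3 (0.32) and of Ngfr and Bst1 (0.35), and the farthest those of Mcam and Steap4 (1.96). The genes nearest to Mcam were Tubb2b (0.13), a tubulin, Serpinb6b (0.15), a protease inhibitor, and Zfp385a (0.15). Nearest to Ngfr were Plat (0.23), the tissue plasminogen activator, Tle6 (0.29) and Ephx1 (0.30), an epoxide hydrolase. Slpi, a secreted inhibitor of leukocyte proteases, came nearest to Bst1 (0.13), followed by Pla2g7 (0.19) and Sord (0.22).

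Steap4 was followed most closely by Tcn2 (0.26), the vitamin B12 carrier, Lcn2 (0.29), the iron-binding lipocalin, and Adssl1 (0.34). Lcn2 had 290 units in vehicle and 687 in acetate in replicate 1 and 5476 to 13667 units in the 6 other libraries. Aqp5 was nearest to Cyp1b1 (0.25), a cytochrome P450, Hs3st1 (0.31) and Vdr (0.32), the vitamin D receptor. Padi3 was near Cd74 (0.23), the invariant chain of antigen presentation, and Bcam (0.26), an adhesion molecule of the same family as Mcam. These lists share the same 8 libraries and describe likeness of pattern around each gene's own mean, not of level. That pattern includes the difference between acetate and vehicle.

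**Figure D3:**
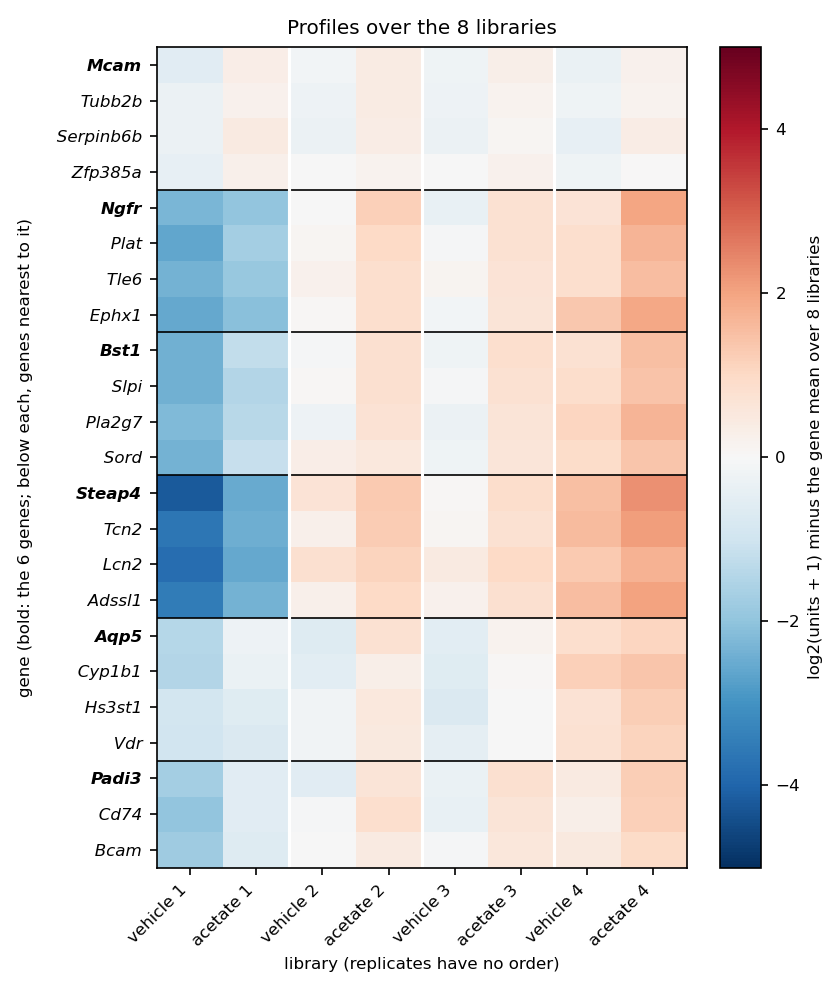
Profiles of the 6 genes (bold) and of the genes named as nearest to each over the 8 libraries, as log2(units + 1) minus the gene's mean (colour, blue below the mean and red above, with the lowest cell at -4.19 for Steap4 in vehicle replicate 1). Rows of Ngfr, Bst1, Steap4, Aqp5 and Padi3 are lowest in vehicle replicate 1 and highest in acetate replicate 4, while the Mcam rows alternate between vehicle and acetate with small steps.

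Relatives and partners of the 6 proteins, and the genes beside them on the chromosome, were not used to choose them and were tested in the fit over all genes (limma, two-sided, Benjamini-Hochberg adjustment over 20189 genes, threshold 0.05). Without the replicate number as a block, 0 of 20189 genes passed (0%), although 353 had an unadjusted p under the threshold. On the recovered reads edgeR called 0 and DESeq2 called 7. With the replicate number as a block, 1744 genes passed (8.64%), of which 1209 were higher in acetate (5.99%) and 535 lower (2.65%). With median-of-ratios scaling the blocked fit called 1821, of which 1000 were higher and 821 lower. Without the replicate 3 pair it called 409 (331 higher, 78 lower), without replicate 4 539 and without replicate 2 617. The tests below are from the blocked limma fit on library totals. Their p-values measure the spread of the change between same-numbered pairs, with differences between replicate numbers taken out. Over the 11 lists together, 150 of 197 genes were measured and 36 passed (31 higher, 5 lower), against 11 without replicate 3, 17 without replicate 2 and 18 without replicate 4. The share of 24.0% stands beside 8.64% over all genes, and the lists were written with earlier results of these data known.

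The other Steap family members, which like Steap4 are metalloreductases or close relatives, did not pass. Steap1 averaged 759 ± 168 units in vehicle and 731 ± 260 in acetate (change -0.09, 95% interval -0.24 to 0.05, adjusted p = 0.445). Steap2 went from 5749.9 to 5387 units (-0.08, interval -0.16 to -0.01, adjusted p = 0.186), and edgeR with the block called it lower (adjusted p = 0.0489). Steap3, which serves iron uptake in red cell precursors, had 136 ± 20.7 and 156 ± 29.3 units (0.19, interval -0.03 to 0.40).

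Of 18 measured genes of metal reduction, uptake and storage (19 written), 5 rose and 1 fell. Lcn2 rose by 0.64 ± 0.11 (SE) and Slc39a8, a zinc and manganese importer, by 0.57 ± 0.13 (adjusted p = 0.00431 and 0.0226, limma with the block). Smaller rises came from the metallothioneins Mt2 (0.25) and Mt1 (0.17) and the copper chaperone Atox1 (0.14). Atox1 did not pass with median-of-ratios scaling (adjusted p = 0.0599) or in edgeR with the block (adjusted p = 0.0505). Slc40a1 had a change of 0.41 and did not pass in limma with the block (adjusted p = 0.0722), while edgeR with the block called it higher (adjusted p = 0.00828). Fth1, the ferritin heavy chain, fell by 0.15. Tfrc, the transferrin receptor, had a change of -0.01 (interval -0.07 to 0.05).

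Cd38 is the paralog of Bst1, cleaves NAD as well, and lies next to it on the chromosome. Its vehicle libraries 1 to 4 had 63.4, 188, 142 and 233 units and its acetate libraries 82.4, 198, 183 and 298 units. It was higher in acetate in 4 of 4 pairs, by 0.29 ± 0.08 (SE), and passed by a small margin (adjusted p = 0.0488, limma with the block), while with median-of-ratios scaling it did not (adjusted p = 0.0614). In the list of NAD-using surface enzymes and NAD synthesis, 15 of 17 genes were measured, 2 rose and 1 fell. Enpp1, a nucleotide pyrophosphatase of the surface, rose by 0.52 ± 0.07, and the deacetylase Sirt1 fell by 0.19.

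Aquaporins were sparse in these cells, with 5 of 11 measured beside Aqp5. Aqp1 rose by 0.52 ± 0.09 (adjusted p = 0.00398, limma with the block), from 182, 358, 342 and 565 units in vehicle libraries 1 to 4 to 199, 621, 530.4 and 814 units in acetate. Aqp3, which also carries glycerol, had 67.2 ± 39.0 and 88.2 ± 54.5 units (0.41, interval 0.14 to 0.69, adjusted p = 0.0683), and edgeR with the block called it higher (adjusted p = 0.0304). Aqp11 had a change of 0.35 (interval 0.03 to 0.67) and Aqp9 one of -0.01 (interval -0.68 to 0.66), and neither passed. Aqp8 averaged 9.46 units in vehicle and 3.12 in acetate, with most of its reads in replicate 1, and did not pass in limma (adjusted p = 0.124), while edgeR with the block called it lower (adjusted p = 0.0310).

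The other Padi genes did not pass. Padi1 had 792 ± 182 units in vehicle and 787 ± 200.2 in acetate (change -0.02, interval -0.12 to 0.08). Padi2 had 701 ± 285 and 709 ± 295 units (0.00, interval -0.10 to 0.11). Padi4, the most abundant of the family, had 6532 ± 1908 and 6313 ± 1888 units (-0.05, interval -0.11 to 0.00). They lie 35.1 to 95.7 kb from Padi3. Of 19 measured genes of arginine deimination and cornification (30 written), Krt17, a keratin of hair follicle and basal cells, rose by 0.81 ± 0.12, and the protease Klk10 fell by 0.23.

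Among Ngfr's partners, 20 of 26 were measured, 3 rose and none fell. Sort1, the co-receptor for proneurotrophins, rose from 79.7 ± 38.1 to 112 ± 43.8 units (0.57 ± 0.13 SE, adjusted p = 0.0197, limma with the block). The related sorting receptor Sorl1 rose by 0.20 and Adam17, a protease that cuts receptors including Ngfr at the surface, by 0.15. The ligand Bdnf had a change of 0.16 (interval -0.01 to 0.32) and did not pass.

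Among relatives and partners of Mcam, 21 of 23 were measured, 6 rose and none fell. Bcam, the nearest relative together with Alcam, rose from 322 ± 163 to 485 ± 192 units (0.69 ± 0.10 SE, adjusted p = 0.00172, limma with the block), and its vehicle libraries 1 to 4 had 102, 348, 342 and 495 units against 228, 489, 529 and 692 in acetate. Alcam had 1606 ± 319.8 and 1658 ± 506 units (0.01, interval -0.14 to 0.16). Lama4, the laminin chain that Mcam binds, rose by 0.55, Ntn1 by 0.39 and Icam1 by 0.33. Pdgfrb rose by 1.40 ± 0.29 from a low level, with 0, 11.4, 8.04 and 21.2 units in vehicle and 3.14, 31.5, 25.5 and 33.1 in acetate. Ezr, a linker of membrane and actin, rose by 0.09. Ezr and Icam1 did not pass with median-of-ratios scaling (adjusted p = 0.105 and 0.0507), and Ezr not in edgeR with the block (adjusted p = 0.0910).

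**Figure D4:**
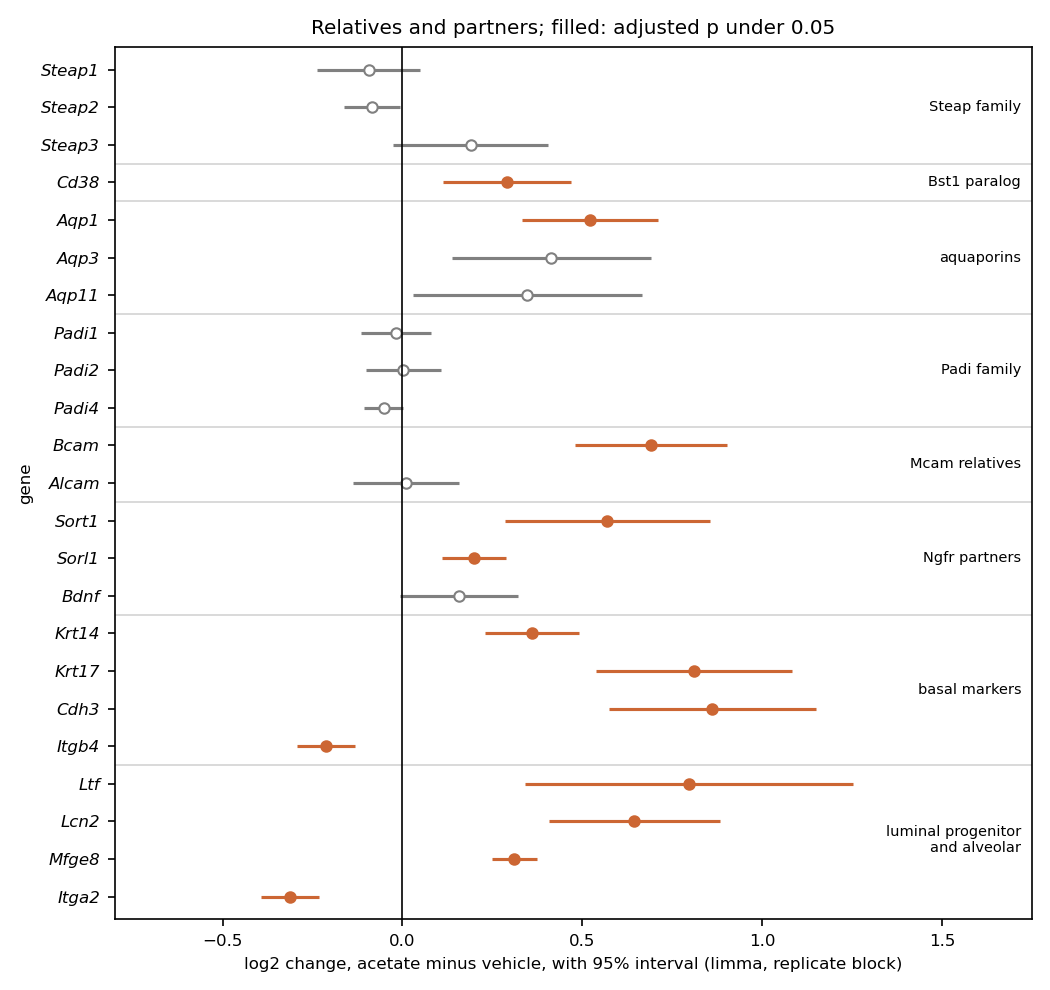
Change of relatives, partners and mammary markers, acetate minus vehicle in log2(units + 1), with 95% intervals from limma with the replicate block (x axis), by gene (y axis). Filled points have an adjusted p under 0.05. The open points of Padi1, Padi2, Padi4, Steap1 and Steap2 lie between -0.09 and 0.00, and Bcam at 0.69 and Cdh3 at 0.86 are among the filled points to the right.

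Markers of mammary cell states moved in both directions. Of 17 basal and myoepithelial genes measured (19 written), 4 rose and 1 fell. Cdh3 (P-cadherin) rose by 0.86 ± 0.13, Krt17 by 0.81 ± 0.12, Krt14 by 0.36 ± 0.06 and Sparc by 0.22, while Itgb4, an integrin of the basal attachment plaques, fell by 0.21. In edgeR with the block 7 of this list passed, among them Trp63 and Itga6, which limma did not call. Trp63 was low, at 5.03 units in vehicle and 13.4 in acetate (limma change 1.01, edgeR adjusted p = 0.0125). Itga6 was lower (limma change -0.09, edgeR adjusted p = 0.0448). Of 10 luminal progenitor and alveolar genes (17 written), Lbp (1.02 ± 0.21), Ltf (0.80 ± 0.21), Lcn2 and Mfge8 (0.31) rose and the integrin Itga2 fell by 0.31. Ltf, a milk protein, had 1.53 units in vehicle and 1.57 in acetate in replicate 1, and 212 and 370.1 units in replicate 4. Csn1s1, Csn2, Wap and Lalba, the defining milk genes, were not among the genes analysed. Of 11 hormone-sensing luminal genes (14 written), Ly6a (0.64), Krt19 (0.40) and Areg (0.30) rose and none fell.

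Of the 8 epithelial markers, Krt19, Cldn4 (0.30) and Cdh1 (0.15) rose, and Krt8 (-0.06, interval -0.11 to 0.00) and Krt18 (-0.05, interval -0.12 to 0.02) did not pass. Of 19 written markers of other cell types, 12 were measured, and Csf1r (1.08), Pdgfra (0.52) and Pdgfrb rose. Their summed level ran from 283 to 1596 units in vehicle and from 472 to 2104 in acetate, most of it Pdgfra, which averaged 994 units in vehicle and 1367 in acetate. Ptprc, the leukocyte marker, averaged 1.90 and 2.62 units, and Pecam1, the endothelial marker, 2.55 and 3.56, with neither passing. Cd3e, Itgam, Adgre1, Lum, S100b and Adipoq were not among the genes analysed. The part of such cells in the levels of the 6 genes was not tested.

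Genes beside the 6 on the chromosome were taken as the 3 nearest protein-coding genes with a mean above 1 unit on each side, 36 in all. They are not all close: Steap2 lies 2266 kb from Steap4. Of the 36, 5 passed in limma with the block (13.9%), 4 of them higher (11.1%), and the median change was 0.06. Over all genes 8.64% passed and 5.99% were higher, with a median change of 0.02. The difference between these shares was not tested. Without replicate 2 there was 1 call, and 2 without replicate 3 or without replicate 4. Without replicate 1 there were 5, of which 2 were higher and 3 lower. Around Mcam, Ngfr and Steap4 none of the 18 neighbours passed in limma with the block. Among those of Steap4, edgeR with the block called 2 lower. These were Steap2 and Dbf4, 462 kb away (limma change -0.09, interval -0.15 to -0.02, edgeR adjusted p = 0.0345). Beside Aqp5, 3 of 6 rose. Faim2, an inhibitor of Fas-driven cell death that lies 62.6 kb away, had 9.16, 23.6, 14.1 and 30.7 units in vehicle libraries 1 to 4 and 20.4, 50.9, 44.4 and 58.9 in acetate, a rise of 1.16 (interval 0.76 to 1.57, adjusted p = 0.00351, limma with the block). Asic1, a proton-gated channel 79.6 kb away on the other side, rose by 0.77 and Nckap5l, 133 kb away, by 0.44. Racgap1, the nearest at 60.9 kb, had a change of 0.05 and did not pass. Beside Bst1 only Cd38 rose, and beside Padi3 only Rcc2 passed, which fell by 0.11.

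**Figure D5:**
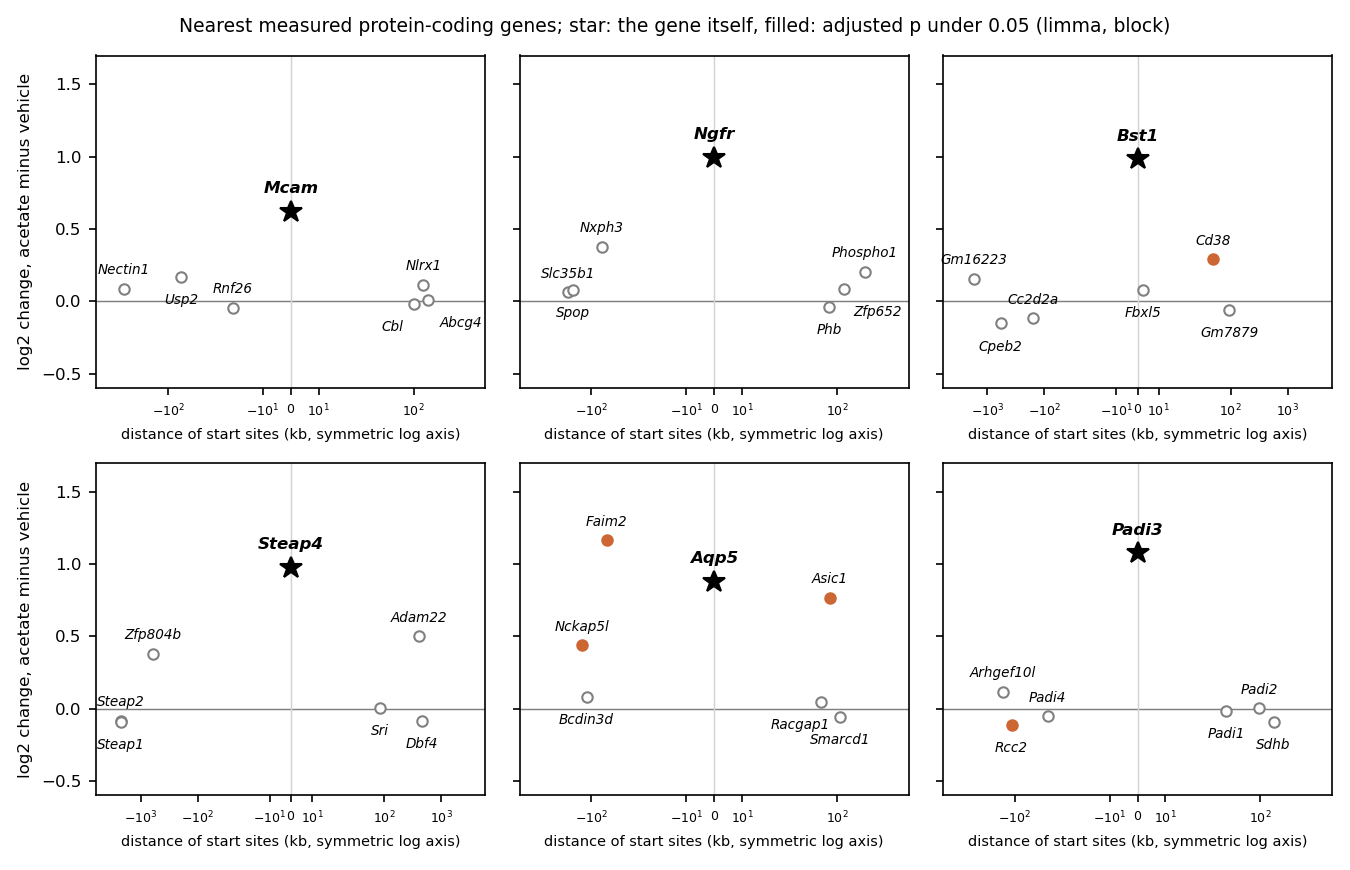
Change of the 3 nearest protein-coding genes with a mean above 1 unit on each side of the 6 genes (circles). Circles are filled where the adjusted p is under 0.05 in limma with the block. The x axis is the distance between start sites in kilobases (symmetric log axis, higher coordinates to the right). Stars mark the 6 genes themselves, drawn at their mean change with no test. Filled circles are Cd38 beside Bst1, Faim2, Nckap5l and Asic1 beside Aqp5, and Rcc2 below 0 beside Padi3.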

How the data were processed

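Stranded poly-A mRNA libraries were sequenced from 4T1 cells, 4 per group. The authors used STAR for alignment (mouse transcriptome, GRCm38) and for counts per gene; the submitters' processing notes also name HTSeq, with versions not given in the sources used here. The deposited values are a library-size-normalised signal, each library summing to 20000000, for 20189 genes above 0 in at least 4 libraries. Dividing by the value of 1 read (0.682 to 1.01 units) gave whole reads for 100% of values (tolerance 0.01 read), although in vehicle replicate 3 a read was so near 1 unit that this cannot be told from rounding. Use of strand in counting is not stated.

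Identifiers were matched to GENCODE M21 on the same build, and 20004 had a symbol. The fit was limma 3.58.1 (R 4.3.3, trend, two-sided) on log2(units + 1) over all genes, with Benjamini-Hochberg adjustment at 0.05 and, as in the study's unpaired ranking, no replicate term. The alternative with a replicate block is used for calls: same-numbered libraries share a label code, and their deviations from group means correlated across genes above the median level (r = 0.976, 0.861, 0.787 and 0.963), each library correlating best with its own number. Recovered reads were tested with edgeR 4.0.16 and DESeq2 1.42.0. Scripts were tested on simulated data. The 6 genes and all lists were chosen with earlier results of these data known. Named genes were the 6, their measured paralogs, up to 6 called genes per list with the largest change in 4 of 4 pairs and some abundant ones that did not pass, called or family neighbours, and the 3 nearest profiles, of which 1 gene is not reported here. Other genes in the text (Fbxl5, Racgap1, Dbf4, Bdnf, Ptprc, Pecam1, Slc40a1, Trp63 and Itga6) were chosen after their values were seen.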

Additional observations from a re-analysis of the deposited data

Results flagged for a closer look

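The gap between 1 library and the nearest of the other 3 of its group, relative to the whole range of that group, was unusually wide in 7 of 172 groups of 4 libraries, where chance alone gives about 1 in 20 groups, here about 9. None of the 7 was in the 6 genes themselves. Aqp8 was highest in replicate 1 in both groups. In vehicle it had 31.3 units there and 0.683 to 5.03 in the others (gap 0.858 of the range), and in acetate 11.8 units against 0 to 0.719 (0.939). Klk10, a kallikrein protease, had 505 units in acetate replicate 1 and 211 to 253 in the other acetate libraries (0.859). Cdh3 was lowest in acetate replicate 1, with 36.1 units against 84.0 to 89.7 (0.894). Serpinb6b, near Mcam in profile, was lowest in vehicle replicate 4, with 158 units against 172 to 174 (0.86). Racgap1, the nearest measured neighbour of Aqp5, was highest in replicate 4 in both groups, with 5188 units in vehicle against 4484 to 4583 (0.86) and 5228 in acetate against 4669.5 to 4741 (0.872).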

How the results depend on the processing

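Without a block, 0 genes passed over all genes, in the lists and among neighbours, and this stayed so without any 1 library. The replicate block, whose pairing comes from the labels, gave 1744, 36 and 5 calls, with median-of-ratios scaling 1821, 32 and 4, with a pseudocount of 5 1764, 35 and 5, and in edgeR 2400, 40 and 7. DESeq2 without a block called 7 over all genes. Leaving out 1 pair in the blocked fit gave 409 (without replicate 3) to 1662 calls over all genes, 11 (without replicate 3) to 36 in the lists and 1 (without replicate 2) to 5 among neighbours; without replicate 4 they were 539, 18 and 2, without replicate 2 617 and 17, and without replicate 3 the neighbours gave 2. The cause was not tested, beyond the fewer libraries in each fit.

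Of 96 recomputed changes of the 6 genes, 81 moved by less than the SD over pairs, 14 moved further and 1 reversed. Leaving out 1 library, with pairs then broken, Mcam ranged from 0.54 to 0.68, Ngfr from 0.40 to 1.82, Bst1 from 0.34 to 1.55, Aqp5 from 0.55 to 1.31 and Padi3 from 0.69 to 1.44. Steap4 ranged from -0.26, without vehicle replicate 1, to 1.97, without acetate replicate 1. For Ngfr, Bst1 and Padi3 these same 2 libraries gave the lowest and the highest value. Leaving out 1 pair kept the changes within 0.53 to 0.65 for Mcam, 0.89 to 1.22 for Ngfr, 0.91 to 1.05 for Bst1, 0.73 to 1.08 for Steap4, 0.69 to 1.09 for Aqp5 and 1.02 to 1.17 for Padi3. The median change of all genes was 0.02 on library totals and 0.00 with median-of-ratios scaling. Few reads limit Ngfr and Steap4 in replicate 1, although its libraries had 26.2 M reads in vehicle and 25.5 M in acetate.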
